A study of Mus musculus and Sus scrofa with 12 samples.

Results

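The 46 genes described here carry, transduce or restrain Wnt signals in the embryonic forelimb. They were taken from a list of Wnt pathway genes and comprised 17 ligands, 12 receptors and coreceptors, 4 R-spondins, 8 secreted antagonists, 4 nuclear effectors and Axin2. All 46 were found by symbol among the 21774 mouse and 20661 pig protein-coding genes of the RefSeq annotations (GRCm38 and Sscrofa11.1), and all 46 were among the 14946 genes with the same symbol in both. The list was drawn up by role in the pathway, with earlier results of these data known. The ligand genes Wnt5a and Wnt7a are not among the 17 and are given with other genes of the pathway.

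The study mapped 3 histone modifications in forelimbs of wild-type mouse embryos at E11.5 (staged by embryonic day) and of wild-type pig embryos at day 23 of gestation, both from natural mating. The assay was ChIPmentation, a chromatin immunoprecipitation in which a transposase adds the sequencing adapters to the antibody-bound chromatin. The labels name 12 samples, 2 per species and modification, and the deposited data are 6 consensus peak lists, each pooling the samples of a group into positions alone. Replicates were littermates, whose material was divided into technical replicates. For pig H3K4me1 the design text gives 1 biological replicate, whereas the labels list 2 samples. Chromatin was fixed with 1% formaldehyde in all groups. Whole forelimbs were used, so fewer cells of a type and less of a mark per cell cannot be told apart, and marks seen at the same gene may come from different cells. Because each list has no value per replicate, none of the counts below has a spread or a test, and depth is unknown; a gene without a listed peak is not shown to lack the mark.

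Wnt proteins are secreted, lipid-modified signals that bind Frizzled receptors together with the coreceptors Lrp5 and Lrp6. In the canonical branch this stabilises beta-catenin, which enters the nucleus and acts with the DNA-binding proteins of the TCF/LEF family; Axin2 is a target of this branch and feeds back on it. R-spondins strengthen the signal, whereas Sfrp, Frzb and Dkk proteins hold it back, Sfrp and Frzb by binding Wnt proteins and Dkk1 by binding the coreceptors. In limb buds, several Wnt genes are known from the surface ectoderm and its apical ridge, and the mesenchyme below responds to them. H3K4me3 is a mark of promoters, H3K27ac of active promoters and enhancers, and H3K4me1 of enhancers and of the flanks of promoters.

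A gene was counted as marked where a peak overlapped, by at least 1 bp, a window reaching 1 kb to either side of an annotated transcription start site (TSS) of the gene. The lists held 18353 to 69962 peaks in mouse and 18713 to 103373 in pig, and mouse peaks were wider, with a median H3K4me3 width of 3308 bp against 1679 bp and a median H3K27ac width of 2928 bp against 1164 bp. Of 6 markers of forelimb mesenchyme, 6 carried H3K27ac in mouse and 5 in pig; the exception was PRRX1, whose nearest pig H3K27ac peak lay 1.17 kb from its annotated TSS. Of 10 ectoderm markers, all 10 carried H3K4me3 and 2 carried H3K27ac in mouse (Trp63 and Sp8), against 7 and 3 of the 8 found in pig. Of 5 endothelial markers, none carried H3K27ac in either species, and the same held for neuronal markers (4 in mouse, 3 in pig).

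The 17 ligands and the genes that receive or restrain their signal differed mostly in H3K27ac. H3K4me3 was called at 42 of the 46 genes in mouse and 38 in pig, against 65% of all mouse and 64.9% of all pig coding genes, and 81.9% and 77.9% of the orthologs. H3K27ac was called at 23 and 22 of the 46, against 41.6% and 46.7% of coding genes and 52.1% and 55.6% of orthologs. Set against the orthologs, which all 46 genes belong to, the list as a whole therefore lay near the background for H3K27ac. Among ligands, H3K27ac was called at 2 of 17 in each species. Among the other 29 genes, it was called at 21 in mouse and 20 in pig. H3K4me1 was called at 33 of the 46 in mouse and 35 in pig, against 54.7% and 61.3% of coding genes and 68.9% and 72.4% of orthologs.

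**Figure D1:**
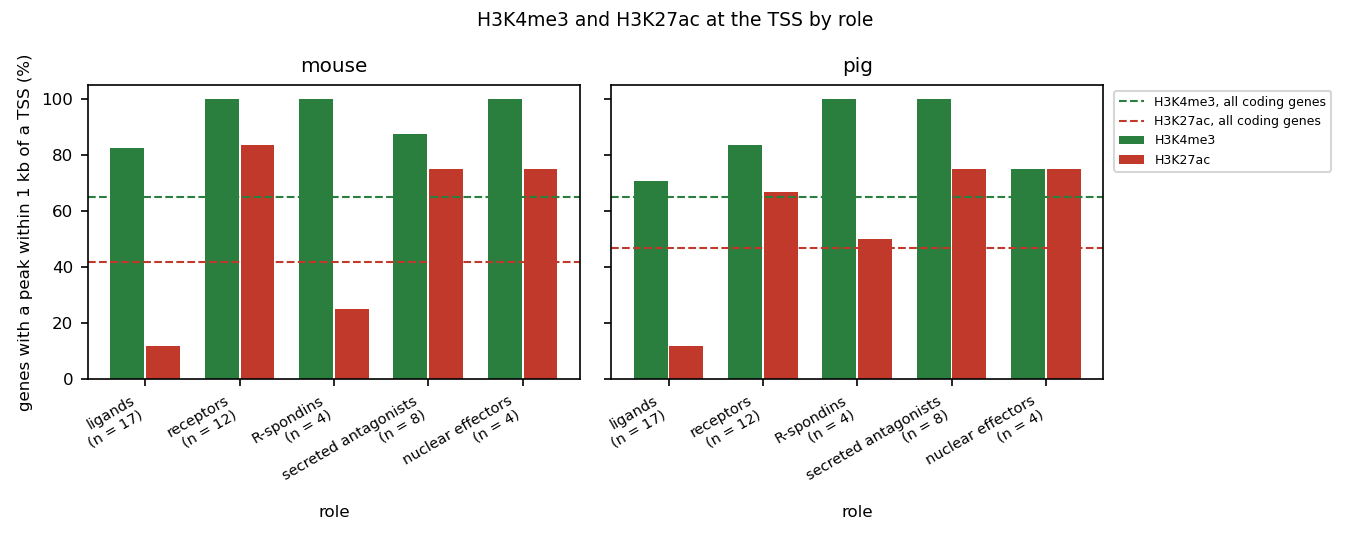
Percentage of genes of each role with an H3K4me3 (green) or H3K27ac (red) peak within 1 kb of a TSS in mouse (left) and pig (right); dashed lines give the percentage over all coding genes, and Axin2, a single gene, is not plotted. H3K27ac was called at 2 of 17 ligands in each species, and at 10 of 12 mouse and 8 of 12 pig receptors.

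The ligand genes carried H3K4me3 mostly without H3K27ac. In mouse, 14 of the 17 ligands had H3K4me3 and 12 of these also had H3K4me1 but no H3K27ac, a combination found at 17.4% of mouse coding genes, at 22.6% of orthologs in mouse, and at 26.7% of mouse coding genes with H3K4me3. In pig, 12 had H3K4me3 and 9 had this combination, which 16.2% of pig coding genes, 19.8% of orthologs in pig and 25% of pig coding genes with H3K4me3 carried. The 9 pig genes were all among the 12 in mouse: Wnt2, Wnt2b, Wnt3, Wnt3a, Wnt6, Wnt7b, Wnt9a, Wnt9b and Wnt16. Over all orthologs, 9.49% had the combination in both species. Wnt3, Wnt6 and Wnt7b are ligands known from limb ectoderm.

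Most of these ligand promoters lay far from H3K27ac. For the 15 ligands without it, the nearest H3K27ac peak lay 1.4 to 89.1 kb from a TSS in mouse (median 39.7 kb) and 3.68 to 90.3 kb in pig (median 46.6 kb). In each species, 12 of the 15 distances were above 10 kb. Such distances were not measured for all coding genes without H3K27ac, so they are not shown to be particular to ligands. The other member genes without H3K27ac were no nearer in mouse (median 43.4 kb, 6 of 8 above 10 kb) and had a median of 17 kb in pig (6 of 9 above 10 kb). Near cases were mouse Wnt9a at 1.4 kb and Wnt8a at 1.67 kb, which a window of 2.5 kb counted as marked, raising the mouse count from 2 to 4. The next in mouse was Wnt16 at 4.73 kb. In pig the near cases were WNT2B at 3.68 kb, WNT6 at 4.48 kb and WNT10B at 8.99 kb. In mouse, the markers of each cell type other than mesenchyme had H3K4me3 more often than H3K27ac: 10 against 2 for ectoderm, 5 against 0 for endothelium, 4 against 1 for muscle precursors, 5 against 1 for blood, 3 against 1 for neural crest and glia, and 3 against 0 for neurons. Over all coding genes the shares were 65% against 41.6% in mouse and 64.9% against 46.7% in pig. The pig marker counts were 7 against 3 for ectoderm, 2 against 0 for endothelium and 3 against 0 for muscle precursors. They were 0 against 0 for blood, 1 against 0 for neural crest and glia, and 2 against 0 for neurons. The part of cell type shares in the ligand counts was not tested.

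Wnt5b and Wnt11 were the 2 listed ligands with H3K27ac at a TSS, in mouse and pig alike. Both are known chiefly for signalling that does not pass through beta-catenin. At Wnt5b (mouse chr6:119432531-119544824, minus strand; pig chr5:68627158-68731938, plus strand) the H3K27ac peak spanned 3830 bp in mouse and 1586 bp in pig. At Wnt11 (mouse chr7:98835084-98854747, plus strand; pig chr9:10413182-10435158, minus strand) it spanned 4230 bp in mouse and 3029 bp in pig. Their H3K4me3 peaks were also wide, at percentiles 97.5 and 99.3 of the marked coding genes in mouse and 77.1 and 96.3 in pig. H3K4me1 was called at both genes in mouse and at neither in pig, where its nearest peaks lay 1.21 kb (WNT5B) and 2.04 kb (WNT11) away. Under the other settings for calling a mark at a TSS, these 2 and no other ligand carried H3K27ac, apart from the 2.5 kb window in mouse.

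Wnt1, Wnt8a and Wnt8b had no H3K4me3 in either species. Wnt1 and Wnt8b are known from the developing brain, and Wnt8a from the early embryo. The nearest H3K4me3 peak lay 10.2, 34.3 and 17.3 kb from their mouse TSSs and 16.5, 47.9 and 10.1 kb from their pig TSSs, in that order. Wnt1 had no mark in mouse and H3K4me1 in pig (4910 bp). Wnt8a likewise had none in mouse and H3K4me1 in pig (2093 bp). Wnt8b had H3K4me1 in mouse (9289 bp) and none in pig.

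Several ligand genes lie side by side, so that their marks are not independent. In mouse, the divergent genes Wnt3 and Wnt9b have TSSs 1.1 kb apart and shared a single H3K4me3 peak of 4733 bp, the widest at each of them. In pig, the nearest TSSs annotated for WNT3 and WNT9B are 27.8 kb apart and no H3K4me3 peak was shared. The mouse TSS region of Wnt9b aligned to pig sequence 28.8 kb from the annotated WNT9B start, and that sequence lay in an H3K4me3 peak. Wnt6 and Wnt10a, Wnt1 and Wnt10b, and Wnt3a and Wnt9a are neighbours in both species and shared no H3K4me3 peak at their TSSs in either.

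**Figure D2:**
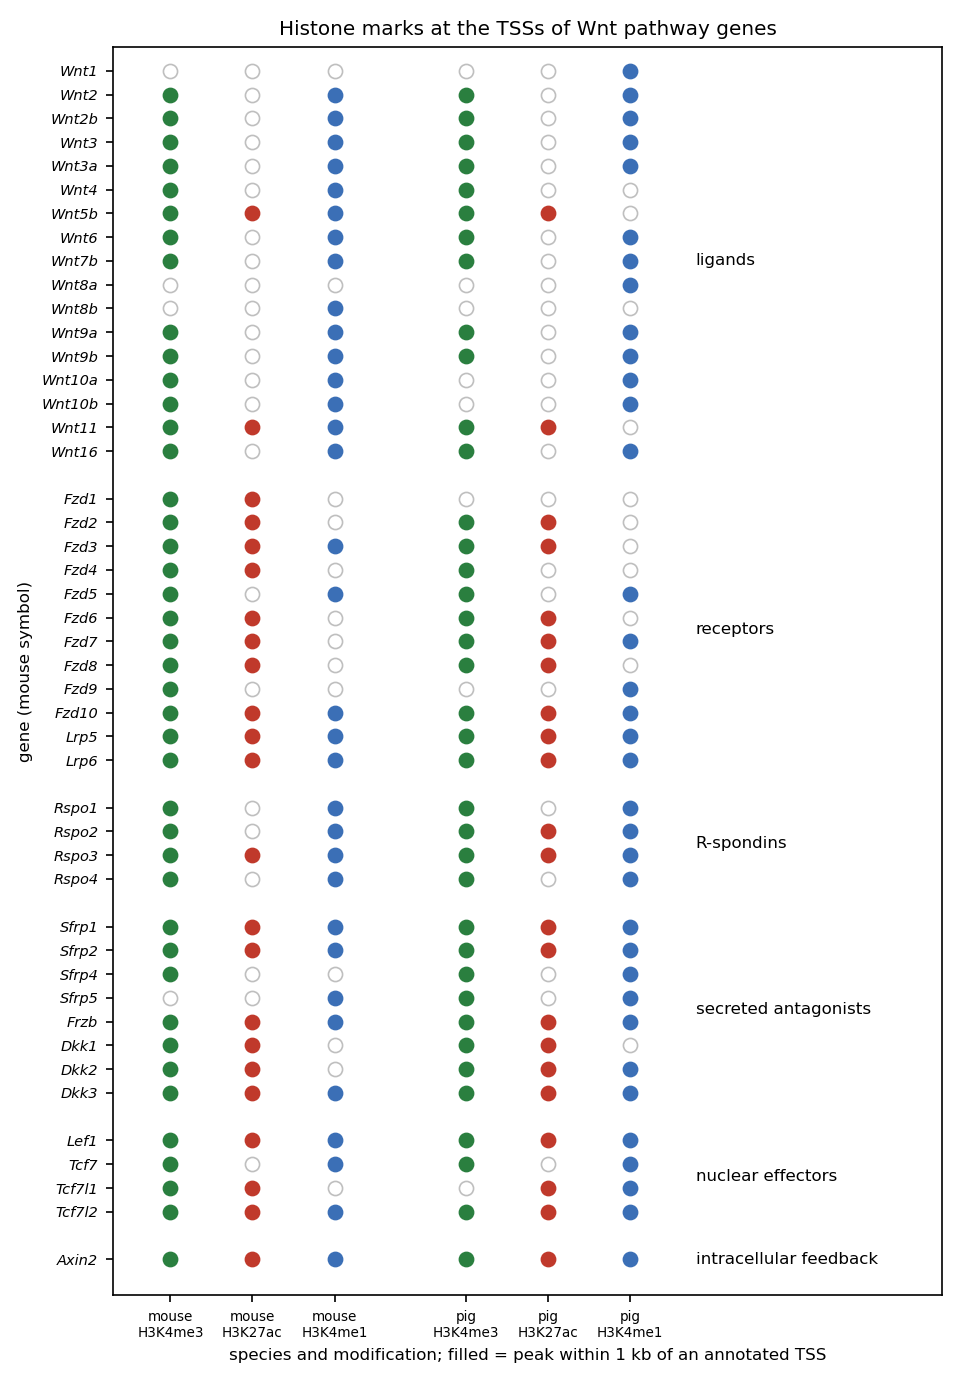
Marks called within 1 kb of an annotated TSS for each of the 46 genes (rows, by role) in mouse (left columns) and pig (right columns); filled circles are called, open circles are not. The H3K27ac columns are open for 15 of the 17 ligands in each species, and the H3K4me3 columns are filled for 42 genes in mouse and 38 in pig.

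Receptor genes were mostly marked by H3K4me3 together with H3K27ac. All 12 had H3K4me3 in mouse and 10 in pig, and H3K27ac was called at 10 in mouse and 8 in pig. Over coding genes with H3K4me3, 62.3% in mouse and 69.4% in pig also had H3K27ac. The coreceptor genes Lrp5 and Lrp6 and the receptor gene Fzd10 carried all 3 marks in both species, a combination held by 31.6% of mouse and 35% of pig coding genes (40.2% and 42.3% of orthologs); over the 46 genes the count was 14 in each species. Fzd5 was the exception among receptors marked alike in both species, with H3K4me3 and H3K4me1 and the nearest H3K27ac peak 44.5 kb away in mouse and 45.9 kb in pig. In the wider 50% of each list H3K27ac was lost at Fzd6 in both species and at Fzd10 in mouse.

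H3K4me1 was often not called at the Frizzled genes. In mouse, 6 receptors had H3K4me3 and H3K27ac without H3K4me1 (Fzd1, Fzd2, Fzd4, Fzd6, Fzd7 and Fzd8), and in pig 4 did (FZD2, FZD3, FZD6 and FZD8); the shares over coding genes were 8.9% and 10.1%, and over orthologs 10.9% and 11.7%. Mouse Fzd9 had H3K4me3 alone. Many Frizzled genes consist of 1 exon. Of the 6 single-exon Frizzled genes in the mouse annotation, 5 had no H3K4me1 within 1 kb of the TSS, with the nearest peak 1.04 to 1.67 kb away; the same was true of 42.2% of mouse single-exon coding genes with H3K4me3 and 24.2% of those with several exons. In pig, 2 of 4 such genes had none, one of them FZD1, which also had no H3K4me3; the share over single-exon pig genes with H3K4me3 was 33.8%. A window of 2.5 kb raised the H3K4me1 count over all 46 genes from 33 to 41 in mouse and from 35 to 42 in pig. It also raised the share over coding genes, from 54.7% to 61.6% in mouse and from 61.3% to 70.3% in pig.

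R-spondin genes all carried H3K4me3 and H3K4me1 in both species, marks that were also common over orthologs (81.9% and 68.9% in mouse, 77.9% and 72.4% in pig), and differed in H3K27ac. Rspo3 had H3K27ac in mouse (3722 bp) and pig (3543 bp). Rspo1 and Rspo4 had it in neither, with the nearest peaks 43.6 and 49 kb away in mouse and 44 and 14 kb in pig. Rspo2, which limb outgrowth is known to need, had H3K27ac in pig (2438 bp), while in mouse the nearest H3K27ac peak was 94.1 kb away. The pig RSPO2 start region aligned to mouse sequence 0.528 kb from the mouse TSS, within mouse H3K4me3 and H3K4me1 and 93.6 kb from H3K27ac.

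Of the 8 secreted antagonists, 6 carried H3K4me3 and H3K27ac in both species: Sfrp1, Sfrp2, Frzb, Dkk1, Dkk2 and Dkk3. Over orthologs, 42.5% had H3K27ac in both species. In the wider 50% of each list H3K27ac was lost at Sfrp1 in both species and at Dkk1 and Dkk3 in mouse. H3K27ac widths at Sfrp2 were 4188 bp in mouse and 3709 bp in pig, and at Dkk2 they were 4150 and 1348 bp. At Sfrp1 the H3K27ac peak was short in both, 973 and 911 bp. Dkk1 had no H3K4me1 within 5.67 kb in mouse or 2.74 kb in pig, whereas Dkk2 had H3K4me1 in pig only (3809 bp), the nearest mouse peak being 15.2 kb away. Sfrp4 and Sfrp5 were the antagonists without H3K27ac in either species, although the 2.5 kb window counted mouse Sfrp4 as marked. Sfrp4 had the narrowest H3K4me3 peak of all 46 genes in mouse, 948 bp, and a narrow one in pig, 1158 bp.

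Among the nuclear effectors, which bind DNA at Wnt targets, Lef1 and Tcf7l2 carried all 3 marks in both species, but with an overlap of 500 bp required, pig TCF7L2, 0.578 kb from the peak, lost H3K27ac. Tcf7 had H3K4me3 and H3K4me1 without H3K27ac in both, with the nearest H3K27ac peak 43.3 kb away in mouse and 17 kb in pig. Tcf7l1 had H3K4me3 and H3K27ac in mouse, but H3K27ac and H3K4me1 without H3K4me3 in pig, at annotated starts that did not align with each other. Axin2 carried all 3 marks in both species, with H3K4me3 of 4585 bp in mouse (percentile 92.4) and 2751 bp in pig (percentile 87.7). The mouse H3K27ac call at Axin2 rested on a further annotated TSS: counted at the 5′ end of the gene record alone, it was not made.

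Marking was the same for all 3 modifications in mouse and pig at 28 of the 46 genes, against 48.8% of orthologs. H3K4me3 was called in both species at 37 genes (74.7% of orthologs) and in neither at 3 (15%). H3K27ac was called in both at 21 (42.5%) and in neither at 22 (34.9%), and H3K4me1 in both at 28 (54.9%) and in neither at 6 (13.7%). H3K27ac was called in 1 species only at 3 genes, H3K4me3 at 6 and H3K4me1 at 12. For H3K27ac these were Fzd1 and Fzd4 in mouse, where 9.57% of orthologs had mouse-only H3K27ac, and Rspo2 in pig, where 13.1% had pig-only H3K27ac. For H3K4me3 they were Wnt10a, Wnt10b, Fzd1, Fzd9 and Tcf7l1 in mouse (7.17% of orthologs) and Sfrp5 in pig (3.15%). For H3K4me1 they were Wnt4, Wnt5b, Wnt8b, Wnt11 and Fzd3 in mouse (13.9%) and Wnt1, Wnt8a, Fzd7, Fzd9, Sfrp4, Dkk2 and Tcf7l1 in pig (17.4%). Read length at sequencing differed between the species for H3K4me3 and H3K27ac, and its part was not tested.

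Some of these calls moved with the annotated pig start. The mouse Fzd1 TSS region, 1 kb on each side, aligned to pig sequence 2.76 kb from the annotated FZD1 start (75.5% identity over 1598 bp), and that sequence lay in pig H3K4me3, H3K27ac and H3K4me1 peaks. The mouse Fzd9 region aligned 2.03 kb from the annotated FZD9 start, in a pig H3K4me3 peak and 7.06 kb from H3K27ac. With the aligned region counted as a further start, a rule chosen after the data were seen, H3K4me3 differed at 4 genes (Wnt10a, Wnt10b, Sfrp5 and Tcf7l1) H3K27ac at 2 (Fzd4 and Rspo2) and H3K4me1 at 10. The pig record of TCF7L1 spans 20.8 kb against 163 kb in mouse. Its annotated start aligned inside the mouse gene, 20.8 kb from the nearest mouse TSS. That mouse sequence lay on H3K4me3 and H3K4me1, 3.05 kb from H3K27ac. The mouse TSS region found no pig match of at least 100 bp within 100 kb. No mark at Tcf7l1 could therefore be compared at matching starts, although the gene stays in the counts above.

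Where the regions did align, differences of 1 species remained. The mouse Wnt10a region aligned 0.496 kb from the pig start, with pig H3K4me3 16.1 kb away, and the Wnt10b region 0.281 kb from it, with pig H3K4me3 10.4 kb away. Their mouse H3K4me3 peaks measured 3710 and 3138 bp. The Fzd4 region aligned with 79.6% identity to pig sequence in H3K4me3 but 44.3 kb from H3K27ac, whereas mouse Fzd4 had an H3K27ac peak of 3325 bp. The coding TSSs on both sides of mouse Fzd4 are 0.223 kb apart, against 108 kb in pig. The mouse peak can therefore not be told from a mark of another gene's start. At Sfrp5 the pig H3K4me3 peak measured 1511 bp, and the pig region aligned to mouse sequence 29.2 kb from mouse H3K4me3.

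The Sfrp5 promoters are shown because this was the 1 gene with H3K4me3 in pig and not in mouse. Both are the 250 bases before the annotated start, 5′ to 3′ on the minus strand, from RefSeq (mouse GRCm38 chr19:42202253-42202502; pig Sscrofa11.1 chr14:109125656-109125905), with CpG dinucleotides in capitals. The start regions aligned over 1167 bp, and the middle of that block lay 0.038 kb from the pig start and 0.204 kb from the mouse start. The annotated starts are therefore not at the same aligned position, and the 2 stretches need not be counterparts base for base.
Sfrp5, mouse: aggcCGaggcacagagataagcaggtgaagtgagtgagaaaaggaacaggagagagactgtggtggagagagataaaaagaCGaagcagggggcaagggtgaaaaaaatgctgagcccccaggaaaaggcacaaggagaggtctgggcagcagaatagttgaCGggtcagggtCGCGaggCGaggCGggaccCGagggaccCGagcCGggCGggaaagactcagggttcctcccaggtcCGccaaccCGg
SFRP5, pig: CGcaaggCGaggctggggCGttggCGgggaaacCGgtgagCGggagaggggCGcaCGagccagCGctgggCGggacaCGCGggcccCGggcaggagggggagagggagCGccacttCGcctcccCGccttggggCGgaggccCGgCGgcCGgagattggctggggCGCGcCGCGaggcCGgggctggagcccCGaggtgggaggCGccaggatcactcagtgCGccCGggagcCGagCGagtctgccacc
The mouse stretch holds 13 CpGs and the pig stretch 31. At Wnt10a and Wnt10b, with H3K4me3 in mouse only, the 300-bp promoters (250 bases before to 50 after the start) held 21 and 15 CpGs in mouse and 18 and 27 in pig. The species with H3K4me3 had more CpGs at Sfrp5 and Wnt10a and fewer at Wnt10b. Neither the Sfrp5 nor the Wnt10b counts compare strictly. The Sfrp5 starts are not at the same aligned position, and the 5′ end of the pig WNT10B record lies inside the WNT1 record. The part of CpG content in these calls was not tested. The pig WNT10B start regions matched best 14.6 kb from the nearest mouse Wnt10b TSS. Over all coding genes the median was 17 CpGs with H3K4me3 and 2 without in mouse, and 23 and 4 in pig. Ligands with H3K4me3 but no H3K27ac had a median of 22.5 CpGs in mouse (12 genes) and 30 in pig (10 genes), next to 19 and 24 for the other member genes with both marks. Over all coding genes with H3K4me3, the median was 15 without H3K27ac and 18 with it in mouse, and 23 and 22 in pig. The member groups differ in role as well as in H3K27ac, so their order cannot be set against that over coding genes.

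H3K4me3 peaks at the 46 genes were somewhat wider than at other marked genes of the same species. The median width of the widest peak at a TSS was 3942 bp in mouse over the 42 marked genes, against 3502 bp over all coding genes with H3K4me3, and 2398 bp in pig over 38 genes, against 1913 bp. The median gene of the list stood at percentile 73.8 in mouse and 76.9 in pig. Of the 3 largest roles, receptors had median percentiles of 83.1 in mouse and 92.1 in pig, ligands 70 and 74.8, and antagonists 76.5 and 52.5. Absolute widths differ between the species' lists as a whole, so percentiles are the values to set side by side.

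The widest mouse peaks were at Wnt11 (6294 bp, percentile 99.3), Tcf7l2 (5961 bp, percentile 99) and Fzd10 (5601 bp, percentile 98.3). In pig they were at FZD8 (3771 bp, percentile 98.8), RSPO3 (3736 bp, percentile 98.7) and FZD10 (3551 bp, percentile 98). Wnt11 and Tcf7l2 were also wide in pig, at 3323 and 3396 bp (percentiles 96.3 and 96.9), and Fzd8 stood at percentile 79.5 in mouse. Rspo3 stood at percentile 59.6 in mouse, where its peak was shorter in base pairs too (3666 bp). Places moved most at the ligands Wnt4, from percentile 23.9 in mouse to 86.7 in pig, and Wnt3, from 93.9 to 32.6, the latter with the mouse peak shared with Wnt9b; both were singled out after their values were seen. Narrow peaks went with Sfrp4 in both species (percentiles 0.403 and 6.17), with Wnt16 in mouse (2308 bp, percentile 4.2) and with FZD6 in pig (1055 bp, percentile 3.83), whose mouse peak was 3568 bp (percentile 53.9).

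**Figure D3:**
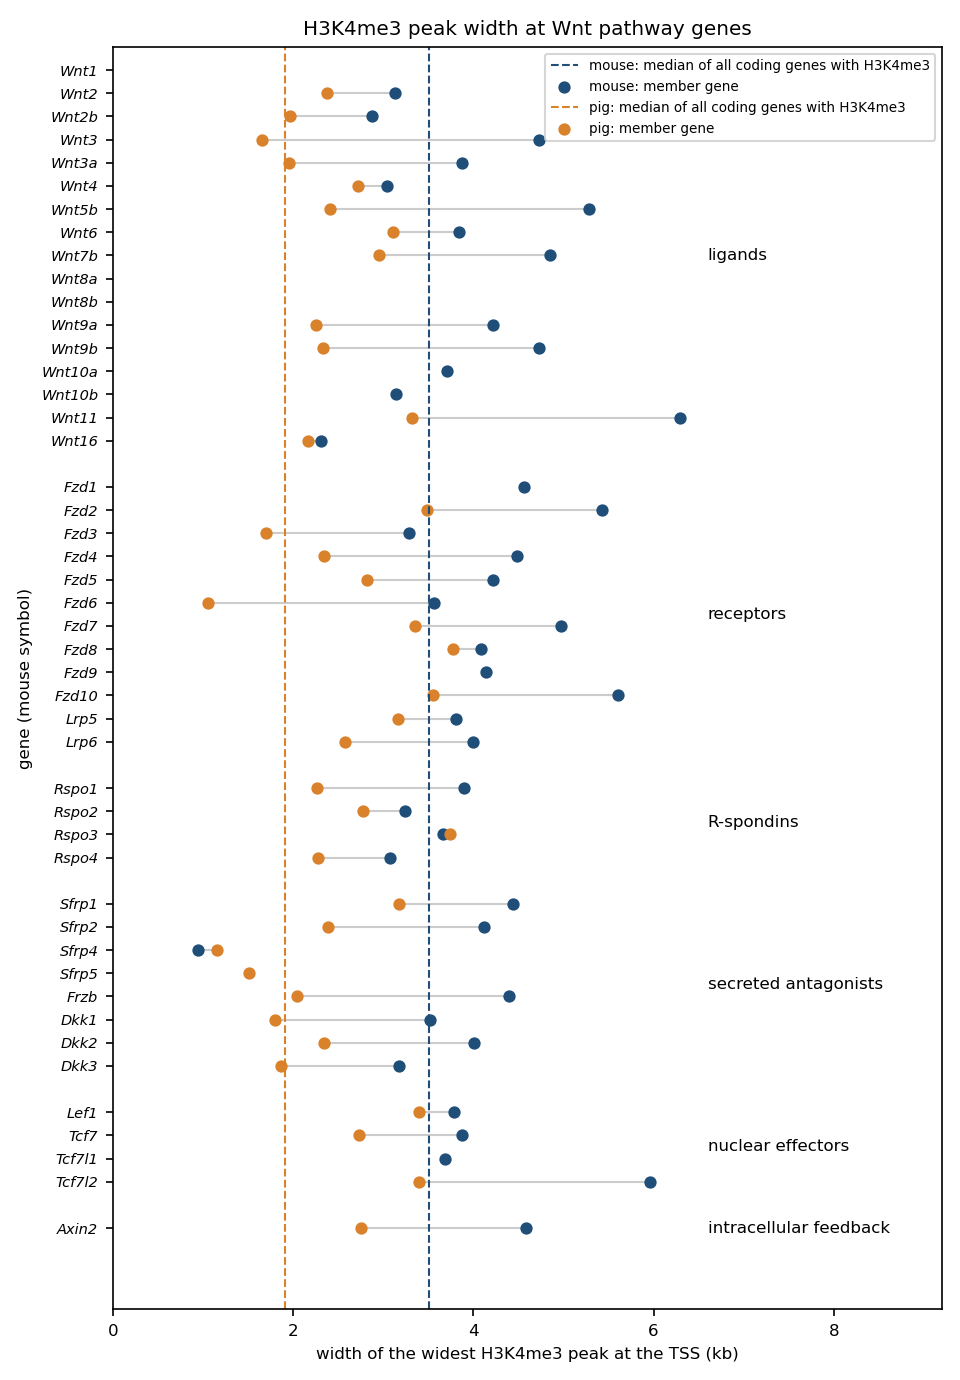
Width of the widest H3K4me3 peak (kb) within 1 kb of a TSS at each gene in mouse (blue) and pig (orange), joined by a grey line where both were called; dashed lines are the medians over all coding genes with H3K4me3. Mouse points lie to the right of pig points except at Rspo3 and Sfrp4, and Wnt11 at 6294 bp is the widest.

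Distal H3K27ac peaks, those away from every annotated TSS and from H3K4me3 peaks, were given to whichever coding gene had the closest TSS, up to 500 kb away. The 46 genes received 57 such peaks in mouse and 119 in pig. At least 1 was assigned to 26 genes in mouse and 30 in pig, against 24.7% and 28.7% of coding genes and 30.8% and 33.6% of orthologs. Peaks numbered 3 or more at 7 and 17 genes, against 4.73% and 8.89% of coding genes and 6.14% and 10.8% of orthologs. The genes also lie in wider gaps: the median distance between the coding TSSs on both sides was 211 kb in mouse and 269.6 kb in pig, against 93.4 and 95.4 kb over coding genes. Per 100 kb of that territory there were 0.38 peaks in mouse and 0.733 in pig, against 0.195 and 0.327 over all coding genes. The part of neighbouring genes in these assignments was not tested; with noncoding genes also allowed as nearest gene, the mouse total was 19 and the pig total 82.

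The most distal peaks in mouse were assigned to Fzd1 (7), Tcf7l2 (7) and Dkk2 (5). In pig they were assigned to FZD1 (13), SFRP1 (10), TCF7L1 (9) and AXIN2 (9). These places depended on the settings. In the wider 50% of the H3K27ac list, mouse Fzd1 and Tcf7l2 had 3 and 2 and Sfrp2 led with 4; in pig FZD1 had 0, SFRP1 3, AXIN2 4 and TCF7L1 led with 7. With noncoding genes allowed as nearest gene, Tcf7l2 fell to 1, Fzd1 to 4 and Dkk2 to 2 in mouse, and AXIN2 to 3 in pig. Within 100 kb, FZD1 had 7 and AXIN2 4 in pig, and Fzd1 had 4 in mouse. Ligands had 13 in mouse and 20 in pig, of which Wnt5b had 3 and 5 and Wnt11 had 1 and 5. Per 100 kb of territory, ligands had 0.427 peaks in mouse and 0.572 in pig, and the other member genes 0.368 and 0.778, so the gap in H3K27ac seen at TSSs had no counterpart in mouse distal peaks counted this way. R-spondins had 0.117 and 0.177, below the value for all coding genes.

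**Figure D4:**
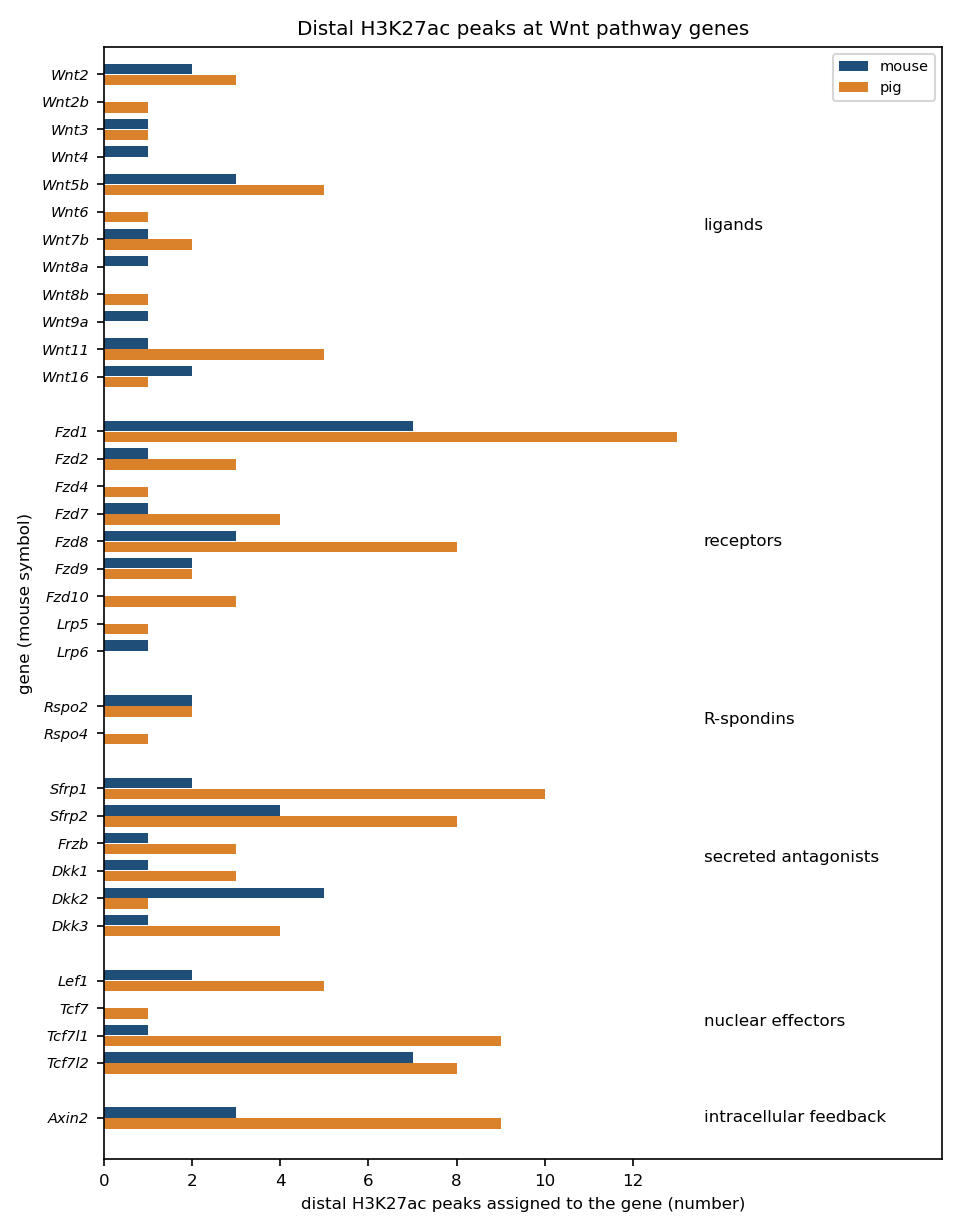
Number of distal H3K27ac peaks assigned to each gene in mouse (blue) and pig (orange), for genes with at least 1 in either species. Fzd1 has the most in pig, 13, and ties with Tcf7l2 at 7 in mouse; Dkk2 has 5 in mouse and 1 in pig.

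Peak numbers and covered length ordered the genes differently. Distal peaks at member genes had a median width of 3046 bp in mouse and 944 bp in pig. In mouse, the length covered was greatest at Sfrp2 (20.8 kb in 4 peaks), Tcf7l2 (20 kb) and Dkk2 (17 kb). In pig it was greatest at TCF7L1 (13.7 kb), SFRP1 (10.2 kb) and AXIN2 (10 kb). The pig list held more distal peaks as a whole, 15794 against 10095 in mouse. Of the 6 antagonists with distal peaks, 5 had more in pig. Among them, Sfrp1 had 2 peaks over 4.53 kb in mouse and 10 over 10.2 kb in pig. Dkk2 was the exception, with 5 peaks over 17 kb in mouse and 1 peak of 1.89 kb in pig, a contrast that shrank to 1 and 0 within 100 kb and to 2 and 1 in the wider 50% of the lists. All 9 distal peaks of pig TCF7L1 lay upstream of its short gene record, 6.59 to 103 kb away. Mouse Tcf7l1 had 1 distal peak, in its own intron. The annotated starts did not align with each other, so these numbers of distal peaks do not compare. The 163 kb mouse record held 5 H3K27ac peaks of any kind, a count that does not leave out peaks at TSSs or on H3K4me3.

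H3K4me1 accompanied 70.2% of the members' distal peaks in mouse and 75.6% in pig, against 48.1% and 72.2% of all distal H3K27ac peaks. All 10 distal peaks of nuclear effectors in mouse and 20 of 23 in pig overlapped H3K4me1. Introns held 17 of the 57 mouse peaks and 49 of the 119 pig peaks, and 37 and 62 were intergenic. Several introns belonged to neighbours: 5 of the 7 mouse Fzd1 peaks lay in introns of Cdk14, and 6 of the 9 pig AXIN2 peaks in introns of CEP112 or AXIN2. All 3 mouse Wnt5b peaks and all 5 in pig lay in introns of Erc1, 54.9 to 132 kb upstream. Distal H3K4me1 peaks without H3K27ac had a median per gene of 1 for ligands and 9.5 for antagonists in mouse and 3 and 11 in pig, against 0 and 1 over all coding genes. These counts are not scaled by territory, whose median was 138 kb for mouse ligands and 327 kb for mouse antagonists. The numbers reached 28 at mouse Fzd1 and 50 at pig TCF7L2.

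**Figure D5:**
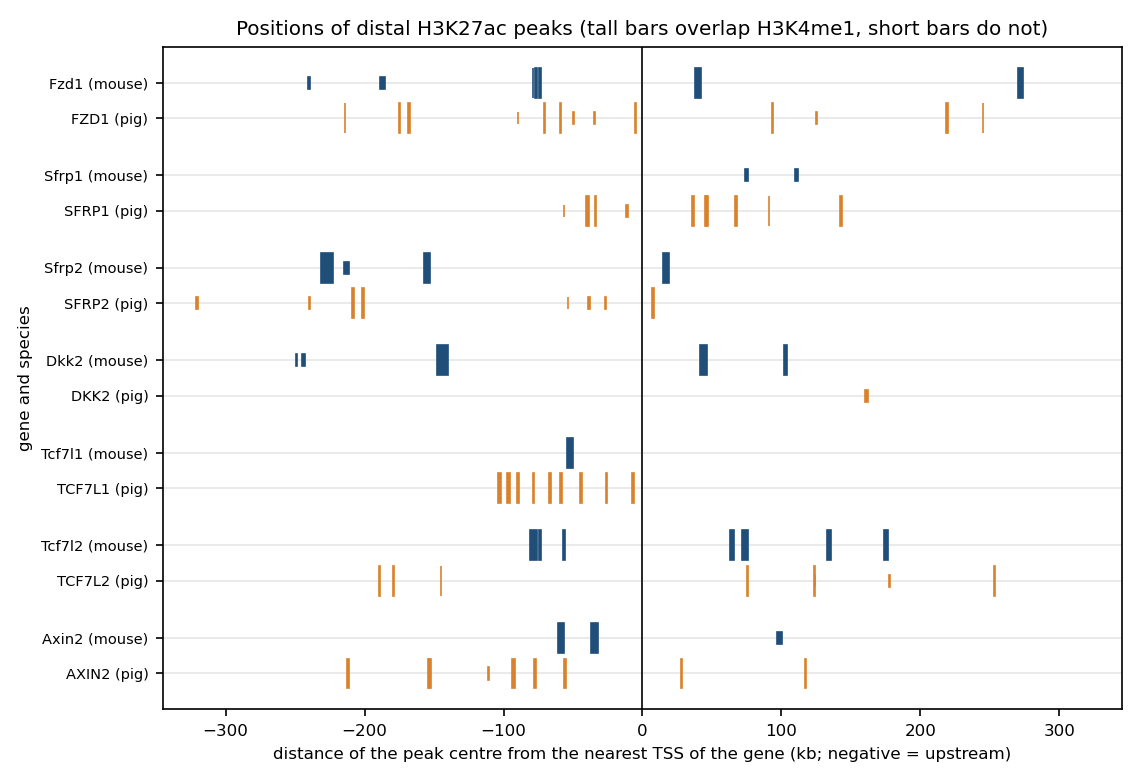
Distance (kb) of distal H3K27ac peaks from the nearest TSS of 7 genes in mouse (blue) and pig (orange), upstream to the left; bar width follows the peak width, and tall bars overlap H3K4me1. At TCF7L1 the 9 pig peaks lie 6.59 to 103 kb upstream, and at Dkk2 mouse has 5 peaks and pig 1.

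The sequence of the mouse distal peaks was searched for in the pig locus (the gene and 500 kb on each side, blastn with an E value of 1e-10 or less). Of the 57 mouse peaks, 38 found a match. The match lay on pig H3K27ac for 5, on H3K4me1 without H3K27ac for 19 and on neither for 14. These 24 marked matches were 63.2% of the 38, while H3K27ac and H3K4me1 peaks together cover 20.8% of the bases of the searched pig loci. H3K27ac held 13.2% of the matches and covers 2.38% of the bases. A match counted with any overlap, so these shares of matches and of bases are not strictly alike. The pig loci of other genes were not searched, so it is not known whether these shares are particular to the members. Of the 5 on pig H3K27ac, those of Fzd1, Fzd2 and Tcf7l2 also lay on pig H3K4me3, which keeps the pig peak out of the distal set, and those of Wnt11 and Tcf7l1 did not. Compared peak with peak, 3 of 57 (5.26%) mouse distal peaks matched a pig distal H3K27ac peak of the same gene, against 3.44% over all orthologs. Over genes with distal peaks in both species the shares were 5.66% (3 of 53) and 5.16%, so the members' share lay near the background.

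The following aligned stretches of mouse distal H3K27ac peaks are shown with their pig counterparts as examples of matches with an H3K4me1 peak in pig. They include matches with and without H3K27ac and need not be typical of the others. The Fzd1 stretch lies 76.5 kb upstream of mouse Fzd1 in an intron of Cdk14 (chr5:4834957-4835236, plus strand, GRCm38) and 80.2 kb upstream of pig FZD1 (chr9:71266590-71266869, minus strand, Sscrofa11.1). The full alignment of 454 positions had 86.8% identity, and the pig sequence carried H3K4me1 without H3K27ac. Capitals mark the TCF/LEF heptamers CTTTGAT and CTTTGAA, which read ATCAAAG and TTCAAAG on the strand shown. Both species hold 1 of each in the same order. Among all matched pairs, only this Fzd1 pair and a pair at Rspo2 held a heptamer in both species.
Fzd1 distal, mouse: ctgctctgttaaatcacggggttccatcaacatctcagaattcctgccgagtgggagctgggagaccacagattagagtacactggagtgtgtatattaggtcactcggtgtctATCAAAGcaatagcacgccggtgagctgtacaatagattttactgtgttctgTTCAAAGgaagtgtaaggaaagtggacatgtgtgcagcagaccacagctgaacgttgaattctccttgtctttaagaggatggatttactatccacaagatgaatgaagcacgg
FZD1 distal, pig: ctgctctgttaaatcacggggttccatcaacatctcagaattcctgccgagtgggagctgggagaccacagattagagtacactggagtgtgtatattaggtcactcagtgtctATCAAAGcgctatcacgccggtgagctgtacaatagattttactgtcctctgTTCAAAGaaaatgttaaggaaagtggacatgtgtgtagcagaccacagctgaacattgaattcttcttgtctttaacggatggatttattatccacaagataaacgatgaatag
The Fzd7 stretch is intergenic, in a mouse peak 86.3 kb upstream (chr1:59394686-59394854, plus strand) and 91.7 kb upstream in pig (chr15:105552339-105552508, plus strand), with 90.6% identity, and again H3K4me1 without H3K27ac in pig. It holds no TCF/LEF heptamer.
Fzd7 distal, mouse: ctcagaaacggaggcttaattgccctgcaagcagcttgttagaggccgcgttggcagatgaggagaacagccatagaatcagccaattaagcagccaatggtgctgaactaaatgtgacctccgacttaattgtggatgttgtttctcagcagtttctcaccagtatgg
FZD7 distal, pig: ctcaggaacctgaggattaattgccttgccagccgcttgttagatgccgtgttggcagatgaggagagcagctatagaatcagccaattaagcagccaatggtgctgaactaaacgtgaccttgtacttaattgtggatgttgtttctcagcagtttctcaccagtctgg
The Tcf7l2 stretch (chr19:56029740-56029915, plus strand) is intergenic, in a mouse peak 134 kb downstream of the nearest of 10 annotated TSSs. Its pig match (chr14:123638568-123638741, plus strand) lay 295 kb downstream of the 5′ end of the gene record. These distances have different reference points and do not compare. Identity was 79.5%, and the pig sequence carried H3K27ac, H3K4me1 and H3K4me3. This stretch too holds no heptamer.
Tcf7l2 distal, mouse: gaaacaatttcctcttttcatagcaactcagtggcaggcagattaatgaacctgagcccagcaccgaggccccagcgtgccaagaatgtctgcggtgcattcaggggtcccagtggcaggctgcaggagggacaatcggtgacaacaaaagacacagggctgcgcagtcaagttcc
TCF7L2 distal, pig: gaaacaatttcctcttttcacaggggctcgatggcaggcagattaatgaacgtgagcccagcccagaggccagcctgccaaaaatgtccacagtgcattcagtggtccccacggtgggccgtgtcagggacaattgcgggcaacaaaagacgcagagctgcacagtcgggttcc

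The heptamers CTTTGAT and CTTTGAA, searched on both strands, were found in the 300-bp promoters of 5 members in mouse (Wnt8a, Wnt11, Rspo2, Dkk1 and Tcf7) and 5 in pig (WNT11, DKK1, LEF1, TCF7 and AXIN2). That is 10.9% in each species, against 8.66% of mouse and 6.65% of pig coding-gene promoters. Wnt11, Dkk1 and Tcf7 held one in both species, 6.52% of the 46, against 0.977% of orthologs. In the central 300 bp of distal H3K27ac peaks, the heptamers occurred in 14% of the members' peaks in mouse and 9.24% in pig, against 10.8% and 7.05% of all distal peaks. A match of these letters is a description of the sequence and not a bound site.

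The Dkk1 promoters are shown because Dkk1, a secreted antagonist, carried H3K4me3 and H3K27ac in both species and the same heptamer upstream of both starts. Both stretches are the 250 bases before the annotated start on the minus strand, from RefSeq (mouse GRCm38 chr19:30549497-30549746; pig Sscrofa11.1 chr14:97490119-97490368), with CTTTGAA in capitals. It begins at position -117 relative to the mouse start and -235 relative to the pig start. The middle of the aligned start regions lay 0.149 kb from the pig start and 0.25 kb from the mouse start.
Dkk1, mouse: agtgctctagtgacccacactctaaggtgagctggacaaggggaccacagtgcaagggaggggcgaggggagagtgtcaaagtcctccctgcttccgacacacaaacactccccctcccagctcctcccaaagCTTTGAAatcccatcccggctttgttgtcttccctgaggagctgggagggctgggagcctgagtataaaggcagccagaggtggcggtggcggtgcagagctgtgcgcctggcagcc
DKK1, pig: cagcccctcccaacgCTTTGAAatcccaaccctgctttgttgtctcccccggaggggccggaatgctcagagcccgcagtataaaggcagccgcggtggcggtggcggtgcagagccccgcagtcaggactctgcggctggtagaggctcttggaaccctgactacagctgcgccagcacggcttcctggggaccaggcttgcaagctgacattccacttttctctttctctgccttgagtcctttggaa

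Other genes of the pathway, 43 in a list of their own, are given for comparison. H3K4me3 was called at 42 of 43 in mouse and 36 of the 42 found in pig (81.9% and 77.9% of orthologs), and H3K27ac at 25 and 26 (52.1% and 55.6%). H3K4me3 with H3K4me1 and without H3K27ac was called at 13 and 10 (22.6% and 19.8%). The H3K27ac counts thus lay near the ortholog shares. The ligand gene Wnt5a, known from the growing limb mesenchyme, carried all 3 marks in both species, with 3 distal H3K27ac peaks in mouse and 12 in pig and an H3K4me3 peak of 10748 bp in mouse, wider than at any of the 46 genes, and of 3518 bp in pig. The ligand gene Wnt7a, known from dorsal limb ectoderm, had H3K4me3 and H3K4me1 without H3K27ac in both, with the nearest H3K27ac peak 28.3 and 34.1 kb away. The beta-catenin gene Ctnnb1 had H3K4me3 and H3K27ac in both species, with 6 distal peaks in mouse and 8 in pig. The Wnt receptor gene Ror2 had 4 distal peaks in mouse and 18 in pig, more than any of the 46 genes in pig.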

How the data were processed

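ChIPmentation of H3K4me3, H3K27ac and H3K4me1 was made from forelimbs of wild-type mice (E11.5) and pigs (day 23), with 2 samples per group in the labels. The authors deposited 6 consensus lists of peak positions (chromosome, start and end; no score, signal or replicate value), and 0 other columns with values per sample were left unused. Per the series' design text, reads of 100 bp (pig H3K4me3 and H3K27ac, 50 bp) were used at 50 bp, aligned to GRCm38 or Sscrofa11.1, and broad peaks were kept at an irreproducible discovery rate below 0.01. Bowtie2 2.3.5, deepTools 3.5, Trimmomatic 0.39, SAMtools 1.9 and FastQC 0.11.9 are named per the submitters' processing notes. For the peak caller, the sources used here give no name.

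Peaks were placed on RefSeq annotations of the same builds with Python 3.11.15 and numpy 2.4.6; sequences were read with pysam 0.24.0 and aligned with blastn 2.17.0 (E value of 1e-10 or less; distal peaks on repeat-masked bases, TSS regions unmasked within 100 kb of the gene and over at least 100 bp). The overlap functions were tested on simulated data against a direct search. The 46 members and the gene lists were chosen with earlier results of these data known. All members were accounted for by role; given in full were those marked differently in the species, the 3 with the widest H3K4me3 and the 3 with the most distal peaks per species (ties kept), and those without H3K4me3. No test was run, since each group has 1 list. Alternatives were a 2.5 kb window, the 5′ end of the record, a 500 bp overlap, the wider 50% of each list, a 100 kb range, joining of peaks within 3 kb, nearest gene of any kind and an E value of 1e-20.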

Additional observations from a re-analysis of the deposited data

How the results depend on the processing

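No paired analysis was possible because the lists hold no value per replicate; for the same reason no replicate could be left out. Of 100 alternative values for 28 results, 74 stayed within 1.5 times the reported value and 26 moved further. With the 2.5 kb window, ligands with mouse H3K27ac went from 2 to 4. Over all mouse coding genes, H3K27ac went from 41.6% to 42.9%. Genes marked in 1 species only became 6 for H3K27ac and 5 for H3K4me1. With the 500 bp overlap, members with mouse H3K4me1 fell to 20 and those with H3K4me1 in 1 species only rose to 19. The share of mouse coding genes with H3K4me1 fell as well, from 54.7% to 36.3%. With the wider 50% of each list, mouse ligands with H3K4me3 and H3K4me1 but no H3K27ac fell from 12 to 5. Genes marked in 1 species only became 14 for H3K4me3, 6 for H3K27ac and 21 for H3K4me1. Over all coding genes, H3K4me3, H3K27ac and H3K4me1 were then called at 40.4%, 24.9% and 26.8% in mouse. In pig the shares were 42.9%, 38.4% and 39%. Distal peaks were the least settled. Within 100 kb the mouse totals were 37 for members, 9 for receptors and 5 for antagonists, and the pig totals 79 for members and 22 for receptors. In the wider 50% of the H3K27ac list they were 31 for members and 8 each for ligands, receptors and antagonists in mouse, and 38, 5, 9 and 10 in pig. With the nearest gene of any kind, mouse totals were 19 for members, 8 for ligands, 7 for receptors and 3 for antagonists. Each of these settings keeps or drops peaks by construction; no other cause was tested. Wnt5b and Wnt11 carried H3K27ac in both species under every setting run. Depth is unknown, so genes near the detection limit cannot be told from unmarked ones.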
